A study of Mus musculus with 20 samples.

Results

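Melanocyte genes were read in RNA of the mouse utricle, the vestibular organ that senses linear acceleration. The 10 genes were taken by name: *Dct*, *Tyr*, *Tyrp1*, *Pmel*, *Mlana*, *Mitf*, *Slc45a2*, *Oca2*, *Kit* and *Gpnmb*. All 10 were listed among the 25655 genes of the deposited count tables, of which 15803 had a count in at least 1 library. *Dct* was among the most abundant transcripts of the organ, *Gpnmb* and *Pmel* followed in the mean over all libraries, and the other members averaged 44.3 CPM or less there (the count of a gene scaled to a common library total). The order below *Gpnmb* differed between groups, with *Mitf* at 79.1 CPM above *Pmel* at 50.6 CPM in the OVX + E2 group. No member differed between the groups past an adjusted p of 0.05 when all libraries were used.

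The 20 libraries came from female C57BL/6J mice, a pigmented wild-type strain, operated on at 8 weeks of age and killed 4 weeks later. The sham + v group kept its ovaries, whereas the other 3 groups (OVX + v, OVX + E2, OVX + RAL) were ovariectomized. All animals carried a subcutaneous pellet, which held vehicle in the sham + v and OVX + v groups, estradiol (50 µg over 60 days) in the OVX + E2 group and raloxifene, a selective estrogen receptor modulator (2.4 mg over 60 days), in the OVX + RAL group. Each group had 5 libraries, numbered 1 to 5, 6 to 10, 11 to 15 and 16 to 20 in this order, made from 1 ng of total RNA by sequencing the 3′ ends of transcripts. The labels do not state that each library was a separate animal, so the p-values measure only the spread between these libraries. Totals ran from 1123053 to 2081747 counts, and those of the OVX + E2 group (1123053 to 1507667) lay below all those of the OVX + RAL group (1702313 to 2081747).

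Melanocytes of the inner ear come from the neural crest and lie in the connective tissue beneath the dark cells, the ion-transporting epithelium that borders the sensory patch. The transcription factor encoded by *Mitf* and the receptor tyrosine kinase encoded by *Kit* are needed for these cells to form and survive. Melanin is made in melanosomes by *Tyr*, the rate-limiting oxidase, with *Dct* (dopachrome tautomerase) and *Tyrp1*, on fibrils of the *Pmel* protein. *Mlana* encodes a small membrane protein of the melanosome, *Slc45a2* and *Oca2* encode membrane proteins that set its pH, and *Gpnmb* encodes a glycoprotein of melanosomes and lysosomes.

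MITF binds DNA with the core CATGTG or CACGTG, and promoters of pigment enzymes are known to carry the first in a longer form. The 250 bases before the start of the canonical transcript were therefore read from GRCm39 for all 10 members, and those of the 3 melanin enzymes and of *Pmel* are shown because they carry, or lack, this sequence. Each is printed 5′ to 3′ on the strand of the gene, and capitals mark GTCATGTGCT, which was the longest run of letters shared by the 3 enzyme promoters (10 bases, 1 such run) and holds the core CATGTG.
*Dct*, chr14:118289598-118289847, minus strand: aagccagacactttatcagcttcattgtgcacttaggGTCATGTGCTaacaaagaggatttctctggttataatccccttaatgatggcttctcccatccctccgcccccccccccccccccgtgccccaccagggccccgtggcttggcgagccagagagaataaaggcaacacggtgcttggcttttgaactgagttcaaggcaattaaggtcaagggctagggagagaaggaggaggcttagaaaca
*Tyr*, chr7:87142721-87142970, minus strand: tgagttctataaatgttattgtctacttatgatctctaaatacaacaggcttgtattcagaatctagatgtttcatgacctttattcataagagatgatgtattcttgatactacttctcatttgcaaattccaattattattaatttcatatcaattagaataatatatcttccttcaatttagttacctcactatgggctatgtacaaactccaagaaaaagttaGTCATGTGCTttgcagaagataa
*Tyrp1*, chr4:80752192-80752441, plus strand: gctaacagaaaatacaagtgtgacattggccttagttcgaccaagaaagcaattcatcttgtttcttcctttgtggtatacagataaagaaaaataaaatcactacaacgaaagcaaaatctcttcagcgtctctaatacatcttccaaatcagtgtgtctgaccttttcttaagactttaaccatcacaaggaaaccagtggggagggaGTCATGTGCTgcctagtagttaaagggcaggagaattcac
*Pmel*, chr10:128541871-128542120, plus strand: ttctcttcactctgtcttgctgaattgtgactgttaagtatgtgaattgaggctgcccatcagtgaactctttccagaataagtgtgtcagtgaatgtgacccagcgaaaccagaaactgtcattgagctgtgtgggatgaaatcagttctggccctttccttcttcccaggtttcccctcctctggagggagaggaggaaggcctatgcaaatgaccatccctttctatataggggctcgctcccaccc
The run was found 213 to 204 bases before the start of *Dct*, 23 to 14 bases before that of *Tyr* and 40 to 31 bases before that of *Tyrp1*. With both strands searched, it stood in these 3 of 10 members, from which it was taken, and in 34 of 19682 promoters of protein-coding genes (0.173%). The shorter CATGTG, which lies within it, was in 4 of 10 members, *Mlana* being the fourth with the reverse form CACATG at 242 to 237 bases before its start, and in 10.1% of all promoters. CACGTG was in 0 of 10 members and in 6.66% of all promoters, and no form was found in the windows of *Pmel*, *Slc45a2*, *Oca2*, *Mitf*, *Kit* or *Gpnmb*. These matches describe the letters only, and they say nothing about binding in the utricle.

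Levels are given in CPM from here on. Each transcript is read at its 3′ end, so these values were not divided by length and can be set beside each other between genes only as such end counts. The 10 members in order of their mean over 20 libraries were *Dct* (765 ± 336 CPM, SD, n = 20), *Gpnmb* (185 ± 74.9), *Pmel* (70.9 ± 42.4), *Mlana* (44.3 ± 33.0), *Mitf* (36.4 ± 36.8), *Slc45a2* (22.4 ± 30.4), *Kit* (15.1 ± 18.4), *Tyr* (8.56 ± 12.4), *Tyrp1* (5.07 ± 13.1) and *Oca2* (0). *Dct* was above *Gpnmb* in 20 of 20 libraries (two-sided exact sign-flip permutation test on log2(CPM + 1), p = 1.91e-06, the smallest it can give with 20 libraries, Benjamini-Hochberg adjusted p = 1.72e-05 over 9 neighbours). *Gpnmb* was above *Pmel* in 18 of 20 libraries (adjusted p = 5.15e-05, same exact test). The other 7 neighbouring pairs did not differ beyond their spread (adjusted p 0.188 to 0.647, exact test), so the order from *Pmel* downward is loose.

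**Figure D1:**
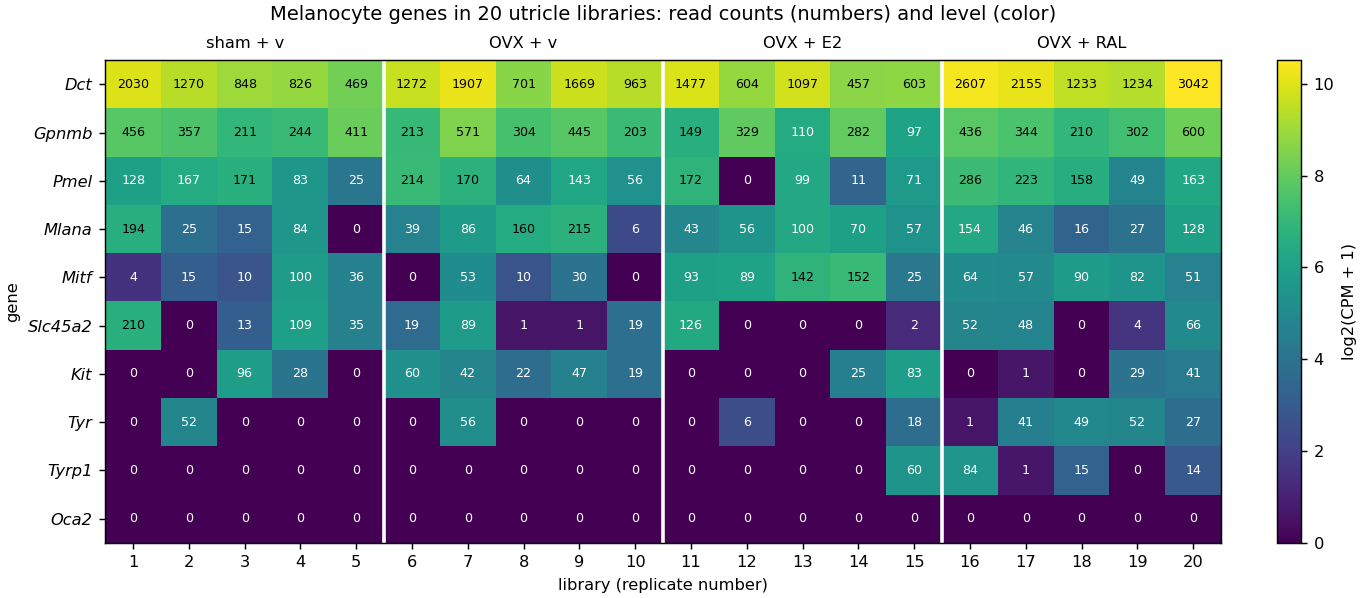
Read counts of the 10 melanocyte genes in each of the 20 libraries (columns, by replicate number and group), with color giving log2(CPM + 1). *Dct* and *Gpnmb* had counts in all 20 libraries, *Oca2* in none, and the other 7 genes were at 0 in 1 to 15 libraries each.

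*Dct* ranked 137 among the 15803 genes with a count, above 99.1% of them. It ranged 4.70-fold over the libraries, from 311 CPM in sham + v replicate 5 to 1461 CPM in OVX + RAL replicate 20. Of the summed level of the 7 pigment cell genes (*Dct*, *Tyr*, *Tyrp1*, *Pmel*, *Mlana*, *Slc45a2* and *Oca2*), *Dct* made up 74.4% in the lowest library, 83.2% in the median library and 92.2% in the highest. As markers of melanocytes in the labelled tissue, *Dct* was thus counted in 20 libraries and *Pmel* and *Mlana* in 19 each, whereas *Tyr*, which defines melanin synthesis, was counted in 9 and *Oca2* in 0.

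The sparse members were mostly either at 0 or well above a few counts. Over the 7 members with a count in some but not all libraries, 43 of 140 values were 0, 10 were between 1 and 9, and 87 were 10 or more. The median of their values above 0 was 52 counts. Reads were counted without molecular identifiers, so the number of molecules behind such a value is unknown. A count of 0 allows up to 3 counts, or 1.44 to 2.67 CPM depending on the library, by counting error alone.

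Among the melanin enzymes, *Dct* had 989, 667, 503, 462 and 311 CPM in the sham + v group and 792, 1196, 397, 827 and 671 CPM in the OVX + v group. It had 980, 456, 879, 407 and 423 CPM in the OVX + E2 group and 1341, 1161, 724, 647 and 1461 CPM in the OVX + RAL group. The OVX + RAL group held the 2 highest values of all and no value under 647 CPM, yet it overlapped with each other group. The means were 586 ± 258, 777 ± 289, 629 ± 277 and 1067 ± 365 CPM (SD, n = 5 each), respectively.

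*Tyr* had a count in 1 sham + v library (52 counts), 1 OVX + v library (56 counts), 2 OVX + E2 libraries (6 and 18 counts) and all 5 OVX + RAL libraries (1, 41, 49, 52 and 27 counts). Its highest value, 35.1 CPM, was in the OVX + v group, so the groups overlapped. *Tyrp1* was at 0 in all sham + v and OVX + v libraries, at 60 counts in OVX + E2 replicate 15, and at 84, 1, 15, 0 and 14 counts in the OVX + RAL group. Both genes were thus counted in more OVX + RAL libraries than libraries of any other group. With at least 3 counts required, these were 4 libraries for *Tyr* and 3 for *Tyrp1*, still the most of any group. The OVX + RAL group also had the highest median total count, and the part of depth was not tested.

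*Pmel*, the fibril protein, had 62.3, 87.6, 101, 46.4 and 16.6 CPM in the sham + v group and 133, 107, 36.3, 70.8 and 39.0 CPM in the OVX + v group. It had 114, 0, 79.4, 9.79 and 49.8 CPM in the OVX + E2 group and 147, 120, 92.8, 25.7 and 78.3 CPM in the OVX + RAL group. The OVX + E2 group held the only library without a count and the lowest value above 0. The last 1000 bases of *Pmel* (chr10:128540064-128556107, plus strand) overlap *Dgka*, a kinase gene on the opposite strand, and whether counting used the strand is not given in the sources used here, so reads of the pair may not be told apart.

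*Mlana* had 94.5, 13.1, 8.89, 47.0 and 0 CPM in the sham + v group, 24.3, 54.0, 90.7, 106 and 4.18 CPM in the OVX + v group, 28.5, 42.3, 80.2, 62.3 and 40.0 CPM in the OVX + E2 group, and 79.2, 24.8, 9.40, 14.2 and 61.5 CPM in the OVX + RAL group. *Slc45a2*, which sets melanosome pH, was counted in 15 of 20 libraries, with its highest value in sham + v replicate 1 (102 CPM). In the OVX + E2 group it was at 83.6 CPM in replicate 11 and at 0, 0, 0 and 1.40 CPM in the others. *Oca2*, its functional neighbour and the longest of the loci (chr7:55889508-56186266, plus strand, 24 exons), had 0 counts in 20 of 20 libraries. The groups overlapped for both *Mlana* and *Slc45a2*.

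*Mitf*, the lineage factor, had 1.95, 7.87, 5.93, 55.9 and 23.9 CPM in the sham + v group and 0, 33.2, 5.67, 14.9 and 0 CPM in the OVX + v group. It had 61.7, 67.2, 114, 135 and 17.5 CPM in the OVX + E2 group and 32.9, 30.7, 52.9, 43.0 and 24.5 CPM in the OVX + RAL group. Of the OVX + E2 libraries, 4 of 5 lay above every OVX + v library and the fifth lay among them. The means were 19.1 ± 22.2, 10.8 ± 13.96, 79.1 ± 46.4 and 36.8 ± 11.2 CPM (SD, n = 5), respectively. Counts at the 3′ end do not separate the *Mitf* isoforms that other cell types of the ear may use.

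*Kit* was counted in all 5 OVX + v libraries (12.5 to 37.4 CPM), in 2 sham + v libraries (56.9 and 15.7 CPM), in 2 OVX + E2 libraries (22.3 and 58.2 CPM) and in 3 OVX + RAL libraries (0.539, 15.2 and 19.7 CPM). *Kit* is also made by mast cells, whose 8 markers summed to 0 to 37.7 CPM, with a median of 0 CPM and no marker in every library. *Gpnmb* is also made by macrophages and osteoclasts. It had means of 189 ± 61.1, 205 ± 92.3, 151 ± 90.9 and 196 ± 63.5 CPM (SD, n = 5) in the 4 groups in the order used above, from 68.0 CPM in OVX + E2 replicate 15 to 358 CPM in OVX + v replicate 7. The 12 macrophage markers summed to 87.8 to 576 CPM and the 8 osteoclast markers to 0 to 96.0 CPM, 4 of the latter being at 0 throughout. The part of these cells in the *Kit* and *Gpnmb* counts was not tested.

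**Figure D2:**
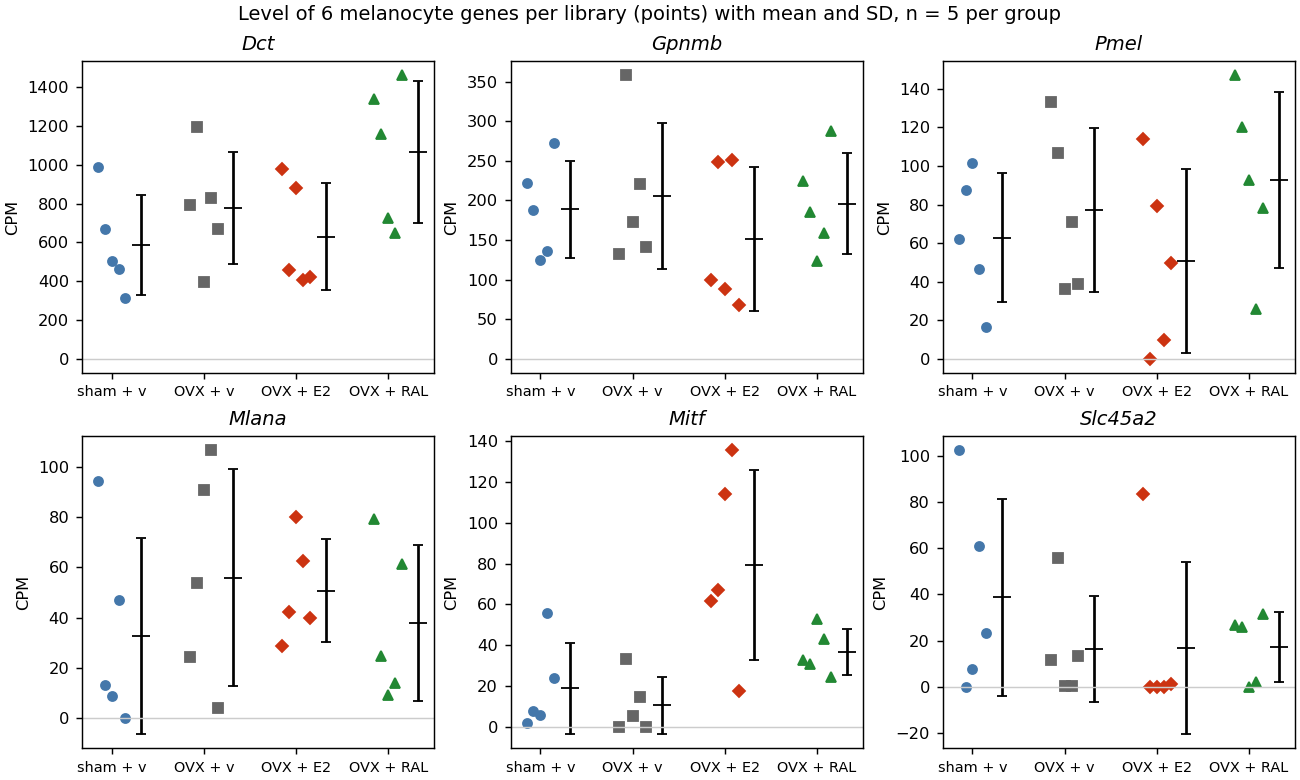
Level in CPM of *Dct*, *Gpnmb*, *Pmel*, *Mlana*, *Mitf* and *Slc45a2* in each library (points) with the mean and SD of each group (n = 5), on linear axes with a scale of their own per gene. The groups overlap in every panel, and in that of *Mitf* 4 of 5 OVX + E2 points lie above all OVX + v points; SD bars that pass below 0 belong to genes with libraries at or near 0.

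The study asked what ovariectomy changes in the utricle and whether estradiol or raloxifene alters it, so each group was compared with the OVX + v group. The sham + v group was the first of these comparisons. Of the members, 8 of 10 had enough counts to be tested (*Tyrp1* and *Oca2* did not), and 0 passed an adjusted p of 0.05 in edgeR's quasi-likelihood test, while 0.0145% of the 13825 genes tested did. DESeq2 and limma also gave 0. In counts simulated after this comparison at the estimated dispersion (below), edgeR recovered 80 of 200 genes changed by 3 on the log2 scale, and limma 0. The 0 of limma therefore adds little here, and the other comparisons were not simulated. At an unadjusted p under 0.05, edgeR gave 0 members, against 12.5% of all genes (5.09% higher and 7.4% lower). This share depended on the filter. With edgeR's default filter, which keeps fewer genes, it was 148 of 8956 genes. Among the sham + v libraries *Dct* lay at -0.41 on the log2 scale (standard error 0.242, 95% interval -0.88 to 0.07, adjusted p = 0.649, edgeR with Benjamini-Hochberg adjustment). *Slc45a2* had 1.24 (standard error 1.35) and *Mlana* had -0.77 (standard error 0.960). Without 1 library each, *Dct* ran from -0.68 to -0.20, *Slc45a2* from 0.49 to 2.56 and *Mlana* from -1.69 to -0.40. Of the 8 members, 2 had values above 0, against 49% of all genes, and 6 below, with a median log2 fold change of -0.33 beside -0.02 for all genes. No member's libraries were separated between the groups without overlap, as was the case for 0.499% of all genes.

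In the OVX + E2 group, 9 of 10 members were tested against the OVX + v group and 0 passed an adjusted p of 0.05 (0.0584% of 13695 genes did), also with DESeq2 and limma. At an unadjusted p under 0.05, 2 members were higher, *Mitf* and *Tyrp1*, and 0 lower, but *Tyrp1* passed the filter on low counts only through the OVX + E2 group and so could only be higher. The share over all genes was 13.9% (4.64% higher and 9.3% lower), but with edgeR's default filter it was 149 of 8354 genes. For *Mitf* the log2 fold change was 2.87 (standard error 1.24, 95% interval 0.43 to 5.30, unadjusted p = 0.0209, adjusted p = 0.351, edgeR). It stayed above 0 in all 18 alternative fits, at 2.55 to 5.05, with adjusted p from 0.325 to 1.00 (edgeR, limma and DESeq2). The OVX + E2 libraries had fewer genes with a count (7427 to 9680) than any OVX + v library (10004 to 10694), and their Schwann cell markers summed to 2813 to 4774 CPM against 1886 to 3299 CPM. The part of either in the *Mitf* value was not tested. The value of *Tyrp1* rests on OVX + E2 replicate 15 alone, against 5 libraries at 0. With those 5 at 3 counts per library, it was at least 4.66-fold higher (adjusted p = 0.351, edgeR), and without replicate 15 both groups were at 0.

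Of the 6 pigment cell genes tested, 0 passed an adjusted p of 0.05 in edgeR, 4 had estimates below 0 and 2, *Slc45a2* (0.05, standard error 2.02) and *Tyrp1*, above. *Tyrp1* could only be higher, as it passed the filter on low counts only through the OVX + E2 group. In the OVX + E2 group *Dct* was at -0.30 on the log2 scale (standard error 0.251, 95% interval -0.80 to 0.19, adjusted p = 0.924, edgeR), *Pmel* -0.61 (standard error 0.913), *Mlana* -0.14 (standard error 1.03) and *Tyr* -1.01 (standard error 2.82). Without 1 library each, *Dct* ran from -0.52 to -0.09 and *Pmel* from -1.15 to -0.29. *Gpnmb* had -0.44 (standard error 0.478) and *Kit* -0.48 (standard error 1.89). The members had 3 values above 0, against 47.5% of all genes, and 6 below, with a median of -0.30, also with *Tyrp1* at its bound, beside -0.06 for all genes. The 3 include *Tyrp1*. With TMM normalization the median of all genes shifted to -0.17 and *Dct* to -0.42. No member was without overlap between the groups, beside 0.832% of all genes.

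In the OVX + RAL group, 9 of 10 members were tested and 0 passed an adjusted p of 0.05 (0.0286% of 14002 genes did), also with DESeq2 and limma. At an unadjusted p under 0.05, 2 members were higher, *Dct* and *Tyrp1*, and 0 lower, but *Tyrp1* passed the filter on low counts only through the OVX + RAL group. The share over all genes was 12.1% (5.98% higher and 6.13% lower). With edgeR's default filter it was 171 of 9357 genes, and with DESeq2 707 of 14002. *Dct* was at 0.46 on the log2 scale (standard error 0.229, 95% interval 0.01 to 0.91, unadjusted p = 0.0465, adjusted p = 0.403, edgeR), and 2 of 5 OVX + RAL libraries lay above every OVX + v library. *Tyrp1* was counted in 4 of 5 OVX + RAL libraries and was at least 6.57-fold higher with the OVX + v libraries at 3 counts each (adjusted p = 0.402, edgeR). Without replicate 16 this bound was 2.23-fold. Among the others, *Mitf* had 1.77 (standard error 1.32), *Tyr* 1.38 (standard error 1.93), *Pmel* 0.27 (standard error 0.536) and *Kit* -1.66 (standard error 1.78). Without 1 library each, *Mitf* ran from 1.45 to 2.81, *Tyr* from 1.05 to 8.06 and *Pmel* from 0.04 to 0.55. The members had 6 values above 0, against 48.3% of all genes, and 3 below, with a median of 0.27, also with *Tyrp1* at its bound, beside -0.03 for all genes. The 6 include *Tyrp1*, which could only be higher. No member was without overlap, beside 0.578% of all genes. The 3 comparisons share the OVX + v libraries and are not independent of each other.

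**Figure D3:**
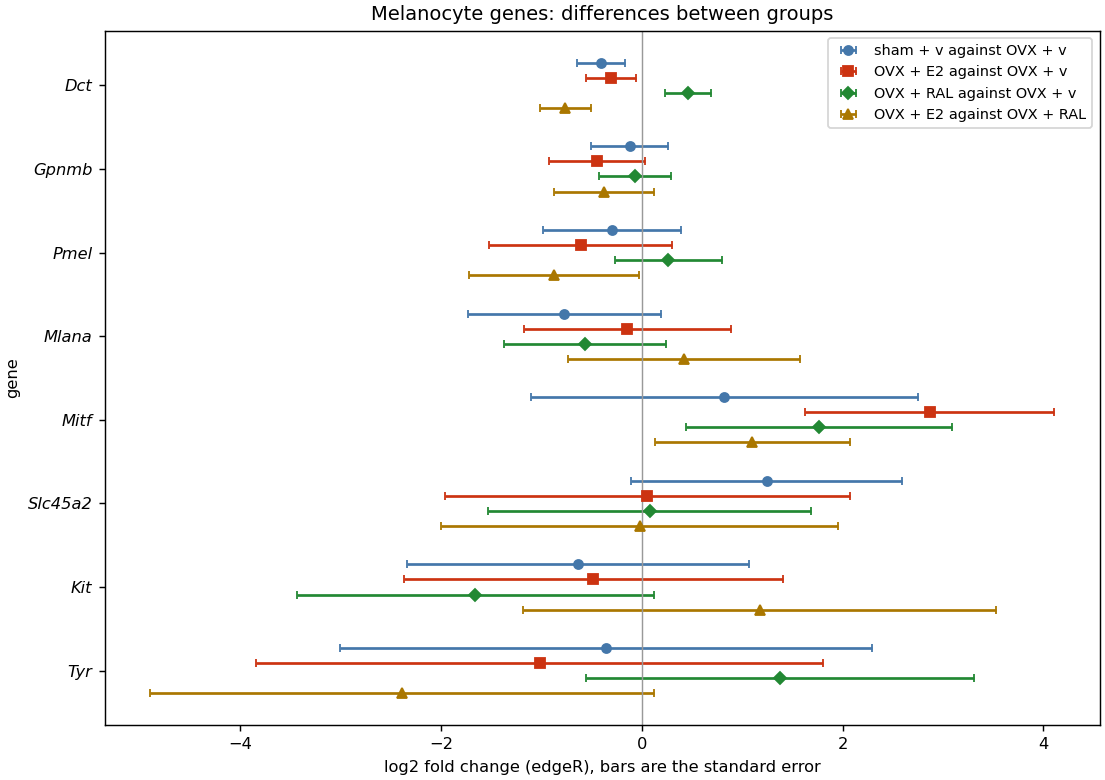
Log2 fold change of 8 melanocyte genes in 4 comparisons between groups. Points give the edgeR estimate and bars a standard error derived from its test statistic. *Tyrp1* and *Oca2* are left out because groups at 0 give no fitted value that can be read. The bars of *Dct* are the shortest, its OVX + RAL point lies at 0.46 and its OVX + E2 point against OVX + RAL at -0.76, and the bars lengthen toward the sparse genes at the bottom.

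The treated groups share no libraries and were compared with each other. Here too, 9 members were tested and 0 passed an adjusted p of 0.05 (0.0727% of 13753 genes did), also with DESeq2 and limma. At an unadjusted p under 0.05, *Dct* alone was lower in the OVX + E2 group, against 14.1% of all genes (9.1% lower and 5.02% higher). With edgeR's default filter the share was 151 of 8429 genes. The log2 fold change of *Dct* was -0.76 (standard error 0.255, 95% interval -1.26 to -0.26, unadjusted p = 0.00278, adjusted p = 0.353, edgeR), and 3 of 5 OVX + E2 libraries lay below every OVX + RAL library. With TMM normalization it was -0.93, with the median of all genes at -0.16 in place of -0.01. The members had 3 values above 0, against 49.5% of all genes, and 6 below, with a median of -0.38, and no member was without overlap, beside 0.909% of all genes. Total counts did not overlap between these groups, and the Schwann cell markers summed to 2813 to 4774 CPM in the OVX + E2 group against 2054 to 2652 CPM in the OVX + RAL group. The part of either in the *Dct* difference was not tested.

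Over all 20 libraries, a difference of any kind among the 4 groups was tested for 9 members, and 0 passed an adjusted p of 0.05 in edgeR (0.141% of 14870 genes did), with 0 in DESeq2. At an unadjusted p under 0.05 there were 2 members, against 16.3% of all genes. They were *Dct* (adjusted p = 0.134, edgeR) and *Tyrp1* (adjusted p = 0.161, edgeR), which was at 0 in all sham + v and OVX + v libraries and entered this fit only through the treated groups. Sham + v replicate 1 decided the call of *Dct*: without this library its adjusted p was 0.0455 (edgeR), the lowest of the 20 fits that leave out 1 library, which ran to 0.271. In whole-organ RNA, fewer melanocytes and less RNA per melanocyte cannot be told apart.

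The members were then compared from library to library on the log2(CPM + 1) scale. *Pmel* followed *Dct*, with Pearson's r of 0.60 (permutation p = 0.00189, adjusted p = 0.0151 over 8 relations, n = 20) and Spearman's rho of 0.72 (permutation p = 0.00055, adjusted p = 0.0044). Without the 2 libraries farthest from the median of *Dct*, r was 0.59. With log2(CPM + 0.1) r was 0.51, and the call was lost (adjusted permutation p = 0.0614). On deviations from the group means r was 0.59 (permutation p = 0.00904, adjusted p = 0.0723), so that the relation kept its size but not its call within groups. *Slc45a2* (r = 0.43) and *Mlana* (r = 0.39) had an adjusted permutation p of 0.225 each. The remaining r were 0.27 for *Tyr*, 0.22 for *Tyrp1*, 0.18 for *Gpnmb*, -0.02 for *Mitf* and -0.19 for *Kit*, none past an adjusted permutation p of 0.05. Over all 36 pairs of the 9 members with a count, r ran from -0.28 to 0.60 with a median of 0.08, and 21 were positive.

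Markers of other cells that the dissected tissue could hold were set beside *Dct* in the same way, over 10 relations. The macrophage sum rose with *Dct* (r = 0.65, permutation p = 0.00171, adjusted p = 0.0171; rho = 0.66, adjusted p = 0.0171), also without the 2 farthest libraries (r = 0.73). On deviations from the group means it had r = 0.56 (adjusted permutation p = 0.111). The sum of fibrocyte and mesenchyme markers, led by *Coch*, *Otos* and *Otor*, had r = 0.54, that of Schwann cell markers had r = -0.55, and that of endothelial markers, led by *Kdr*, *Ly6c1* and *Flt1*, had r = -0.53 (adjusted permutation p = 0.0408 each). Their rho were 0.49, -0.51 and -0.55 (adjusted permutation p 0.0744, 0.0744 and 0.0729), and their r without the 2 farthest libraries were 0.75, -0.47 and -0.66. On deviations from the group means these 3 had 0.51, -0.43 and -0.57, with no adjusted permutation p under 0.05. The dark cells, which overlie the melanocytes, had r = -0.37 (adjusted permutation p = 0.190), with marker sums of 2551 to 5938 CPM. Hair cell (r = 0.04), supporting cell (r = -0.20), mast cell (r = 0.10) and osteoclast (r = 0.33) sums and the total count (r = 0.47, adjusted permutation p = 0.0767) had no adjusted permutation p under 0.05. With TMM factors the total count had r = 0.51 (adjusted permutation p = 0.0487), and without replicate 8 or 13 its adjusted permutation p was 0.0460 or 0.0257.

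**Figure D4:**
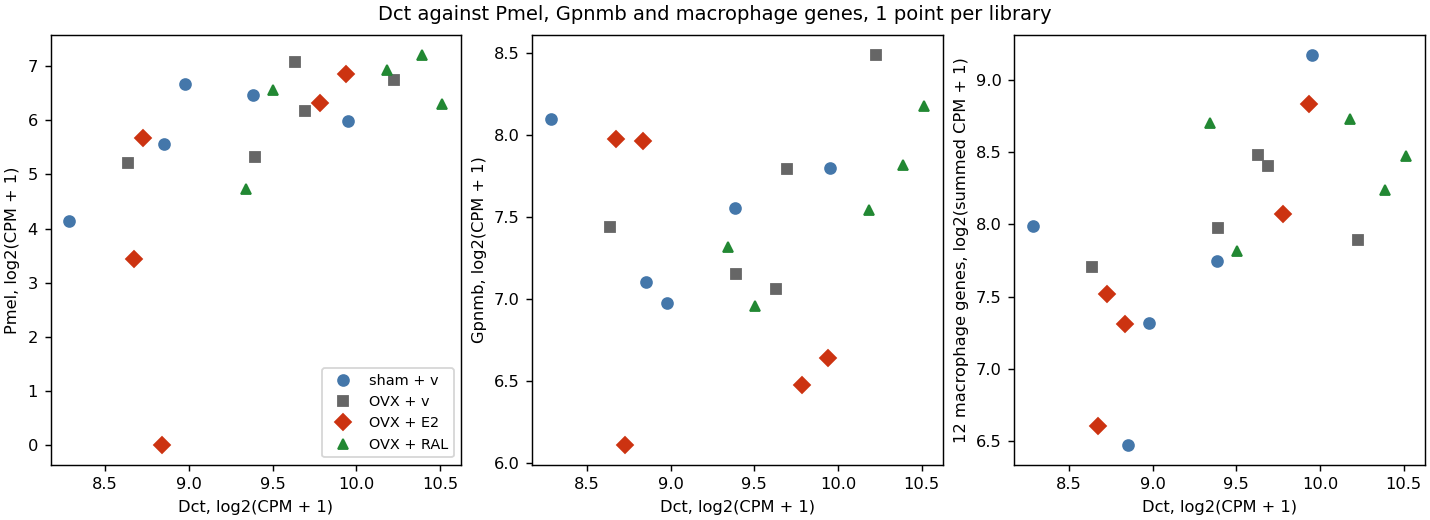
*Dct* (x axis) against *Pmel*, *Gpnmb* and the sum of 12 macrophage marker genes (y axes), all as log2 of CPM + 1, with 1 point per library and the symbol giving the group. *Pmel* (r = 0.60) and the macrophage sum (r = 0.65) rise with *Dct*, whereas *Gpnmb* (r = 0.18) is scattered.

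The genes with the pattern most like that of *Dct* over the 20 libraries were looked up among 7360 genes with a mean of at least 10 CPM and a count in at least 15 libraries. The first 10 were *Psmd4* (r = 0.73), *Dclk2* (0.71), *Dbi* (0.71), *Dip2a* (0.70), *Syt4* (0.70), *C1qb* (0.69), *Zfta* (0.68), *Zfp212* (0.68), *Ensa* (0.68) and *Spp1* (0.67). None of them is a pigment gene. *C1qb* is a complement gene of macrophages and part of the macrophage sum above, so it is not a separate relation. All r are descriptions without a test over points that share the total count of each library. *Pmel* came at place 42, *Slc45a2* at 372, *Mlana* at 546, *Gpnmb* at 2144 and *Mitf* at 4393. The median r of all 7360 genes was 0.04, 5% lay above 0.43 and 181 lay above 0.5.

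Beyond the members, 31 genes of melanosome structure, pH and transport were read, and 30 had a count. *Cd63*, a tetraspanin of lysosomes and melanosomes, led them at 1225 ± 197 CPM (SD, n = 20), with *Bloc1s1* (158 ± 61.1 CPM) and *Ap3d1* (154 ± 58.7 CPM), which serve organelle sorting in most cells. Genes known for their role in pigment cells, named here after their values were seen, differed in how often they were counted. *Gpr143*, the melanosome receptor of ocular albinism, had a count in 1 library and *Slc24a5*, a melanosome ion exchanger, in 2, whereas *Rab38* was counted in 10, *Trpm1* in 12 (19.8 ± 32.1 CPM) and *Mfsd12* in 13 (19.8 ± 20.7 CPM). *Mreg*, a regulator of melanosome transfer, was at 0 in all. In the list, 0 of 28, 27 and 29 tested genes passed an adjusted p of 0.05 (edgeR) in the comparisons of sham + v, OVX + E2 and then OVX + RAL with OVX + v, while 1, 2 and 2 had an unadjusted p under 0.05 (shares over all genes 12.5%, 13.9% and 12.1%). Of these, 1, 2 and 1 were at 0 in all libraries of a group and passed the filter on low counts only through the other group, which left *Atp7a*, a copper transporter gene named after its values were seen, in the OVX + RAL group (log2 fold change -1.50, standard error 0.723, adjusted p = 0.402, edgeR). Values above 0 were 13, 11 and 13 in number, against 49%, 47.5% and 48.3% of all genes.

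Of 22 genes of lineage signals and factors, 21 were listed and had a count. *Sox10* (373 ± 148 CPM, SD, n = 20), which is also a Schwann cell factor, *Sox9* (370 ± 126 CPM) and the ubiquitous *Creb1* (74.1 ± 33.9 CPM) led them. The ligand genes *Kitl* (18.9 ± 29.6 CPM) and *Edn3* (12.98 ± 22.2 CPM) and the endothelin receptor gene *Ednrb* (35.5 ± 40.0 CPM), named after their values were seen, were counted in 13, 14 and 16 of 20 libraries. In contrast, *Pax3* was counted in 1 and the melanocortin receptor gene *Mc1r*, also named after its values were seen, in 3. In this list 0 of 19, 20 and 20 tested genes passed an adjusted p of 0.05 (edgeR), and 5, 5 and 5 had an unadjusted p under 0.05, in the same order of comparisons and beside the same shares of all genes. All of the latter, 5, 5 and 5, were at 0 in all libraries of a group and passed the filter only through the other group, *Pax3* and *Adamts20*, named after their values were seen, by a count in a single OVX + v library each. Values above 0 were 4 of 19, 6 of 20 and 6 of 20, beside the same shares of all genes, and include such genes.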

How the data were processed

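RNA of the utricle was measured in 20 libraries, grouped by their labels. As the methods of the study describe it, the authors clipped adaptor, poly(A) and poor-quality sequence and 12 nucleotides from the 5′ end, discarded reads shorter than 20 nucleotides, and mapped the rest to GRCm39 in CLC Genomics Workbench, with its default settings. Its version, its treatment of multi-mapping reads and its use of strand are not given in the sources used here. The deposited total counts are raw counts of reads per gene, which the authors did not normalize. The tables also hold the authors' RPKM, TPM and CPM values and fold changes, p-values and adjusted p-values of their own comparisons, which were not used. There are 3 tables, the OVX + v columns are identical in them (5 of 5), and 0 columns belong to samples outside the series. Among 40 pairs of replicates, 0 were identical.

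CPM were computed from the column totals. Groups were compared with edgeR 4.0.16 (R 4.3.3; glmQLFit and glmQLFTest, column totals as library sizes) on all genes with at least 10 counts over the fitted libraries, with Benjamini-Hochberg adjustment over all of them and a threshold of 0.05. Alternatives were TMM factors, DESeq2 1.42.0, limma 3.58.1 on log2(CPM + 1) and log2(CPM + 0.1), other filters, robust dispersions, all 4 groups in 1 fit and leaving out each library. Correlations used 100000 permutations, and 10000 where libraries were left out. Tested on data simulated after sham + v against OVX + v (13825 genes, 200 of them changed by 3 on the log2 scale), edgeR recovered 80 with 25 false calls, DESeq2 87 with 102 and limma 0 with 0 at the estimated dispersion, and 193, 192 and 196 at a dispersion of 0.1.

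Promoters were read from the GRCm39 genome with GENCODE transcript starts. The members and lists were chosen with earlier results of these data known. Genes outside the members were named as the 3 highest of a list by mean CPM, as the 10 most like *Dct*, or where stated after their values were seen. *Dgka* was named for its overlap with *Pmel*. The leading genes of the hair cell, supporting cell, macrophage, mast cell and osteoclast lists were not named as such. The leading genes of the Schwann cell and dark cell lists are not reported here. Floors cover counting error only, and intervals of fold changes include the spread between libraries.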

Additional observations from a re-analysis of the deposited data

Results flagged for a closer look

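Among 34 groups of 5 libraries in which a melanocyte gene had a count, 7 held a library whose gap to its nearest neighbour took up more of the range of the group than Dixon's 95% critical value allows. Chance gives about 1 in 20, or 1.7 of 34, for values with a normal spread, which these are not: in 3 of the 7 groups a single library was above 0, so that its gap is the whole range. In each of the 7 the library was the highest. *Tyr* stood at 27.3 CPM in sham + v replicate 2 and at 35.1 CPM in OVX + v replicate 7, with the other 4 libraries of each group at 0. *Tyrp1* stood at 42.1 CPM in OVX + E2 replicate 15 beside 4 libraries at 0, and at 43.2 CPM in OVX + RAL replicate 16 above 8.81, 6.73, 0.539 and 0 CPM. *Slc45a2* stood at 55.8 CPM in OVX + v replicate 7 and at 83.6 CPM in OVX + E2 replicate 11. *Kit* stood at 56.9 CPM in sham + v replicate 3, above 15.7 CPM in replicate 4 and 0 in the others. OVX + v replicate 7 was far from its group in both *Tyr* and *Slc45a2*. It was also the highest library of this group in *Dct* (1196 CPM), *Mitf* (33.2 CPM) and *Gpnmb* (358 CPM). Without it, the log2 fold change against OVX + v was 0.67 for *Dct* in the OVX + RAL group and 3.91 for *Mitf* in the OVX + E2 group.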

How the results depend on the processing

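No paired analysis was possible because the groups share no replicate numbers, the libraries being numbered 1 to 20. *Dct* alone had standard errors under 0.3 on the log2 scale, and the signs of 7 members turned in at least 1 fit that leaves out a library (below). No member passed an adjusted p of 0.05 under any alternative other than *Dct* among the 4 groups without replicate 1 (above).

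The number of genes past the threshold in the sham + v group was 2, both higher, and became 1 with TMM, 12 with DESeq2 (4 higher, 8 lower), 0 with the default filter, 6 with limma on log2(CPM + 0.1) (1 higher, 5 lower) and 0 with robust dispersions; limma on log2(CPM + 1) gave 2, both lower. In the OVX + E2 group 8 became 38 with DESeq2, 1 with the default filter, 19 and 36 with limma on log2(CPM + 1) and log2(CPM + 0.1), 0 of them higher, and 4 with robust dispersions. In the OVX + RAL group 4 became 0 with the default filter, limma on log2(CPM + 1) and robust dispersions, and 2 with limma on log2(CPM + 0.1). Between the treated groups 10 (1 higher, 9 lower in OVX + E2) became 42 with DESeq2 (13 higher, 29 lower), 0 with the default filter, 3 and 22 with limma, 6 with robust dispersions and 16 with all 4 groups in 1 fit. Among the 4 groups 21 became 2 with DESeq2 and 5 with robust dispersions. Without 1 library each, these counts ran from 1 to 10, 6 to 17, 3 to 11, 8 to 16 and 17 to 28, respectively. The 1 relation of *Dct* with a member became 0 on deviations from the group means and with log2(CPM + 0.1), and the 4 with marker sums became 0 on deviations, and 1 to 5 without 1 library each.

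Signs reversed in the OVX + E2 group for *Tyr* (0.21 and 0.81 with limma), *Mlana* (0.38 and 0.43) and *Slc45a2* (-0.10 with TMM, -1.38 and -2.96 with limma), and between the treated groups for *Kit* (-0.11 with limma on log2(CPM + 0.1)). The r of *Dct* became -0.0142 with *Tyrp1* on deviations and -0.0669 with the mast cell sum without the 2 farthest libraries. Without 1 library each, the log2 fold changes that reversed ran in the sham + v group from -6.61 to 6.28 for *Tyr*, -0.12 to 1.88 for *Mitf* and -0.29 to 0.18 for *Gpnmb*; in the OVX + E2 group from -2.55 to 5.39 for *Tyr*, -0.44 to 0.23 for *Mlana* and -5.22 to 1.37 for *Slc45a2*; in the OVX + RAL group from -0.26 to 1.40 for *Slc45a2* and -0.25 to 0.23 for *Gpnmb*; and between the treated groups from -7.28 to 1.05 for *Tyrp1*, -5.31 to 0.31 for *Slc45a2* and -0.35 to 2.01 for *Kit*. The r of *Dct* ran from -0.0806 to 0.0750 with *Mitf* and -0.119 to 0.168 with the hair cell sum. The cause was not tested.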
